A study of Mus musculus with 51 samples.

Results

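Maternal deletion of Dnmt3a and Dnmt3b was compared with wild type for its effect on the parental balance of H3K36me3, the trimethylation of histone H3 lysine 36, in both tissues of the mouse embryo at embryonic day 6.5 (E6.5). The members were all autosomal H3K36me3 peaks that held at least 20 reads in 1 allele column of a wild-type library. This left 7980 of 12871 autosomal peaks in extra-embryonic ectoderm (ExE) and 11076 of 23959 in epiblast. With the other chromosomes there were 13369 and 24540 peaks. For each peak the log2 ratio of paternal to maternal reads, log2(pat/mat), in matDKO/CAST embryos was set against that in B6/CAST embryos, with 2 libraries on each side in each tissue, so that 8 of the 51 samples of the series entered the comparison. B6/CAST embryos came from wild-type C57BL6/Babr mothers and CAST fathers. The matDKO/CAST embryos came from CAST fathers and mothers of a mixed B6/129 background that were Dnmt3a floxed/floxed and Dnmt3b floxed/floxed and carried Zp3-cre, which is active in growing oocytes. These embryos were therefore Dnmt3a -/+ and Dnmt3b -/+ by maternal inheritance and kept the paternal CAST copies, so the deletion acted before fertilization. The reciprocal CAST/B6 cross, also wild type, is given for reference. Each library was made from a pool of 4 epiblasts or 8 ExE, and nothing in the labels says that pools came from separate litters, so p-values measure the spread between pools.

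H3K36me3 is laid down along the bodies of transcribed genes by Setd2, which travels with elongating RNA polymerase II, and an allele that is transcribed alone carries the mark alone. In the growing oocyte Dnmt3a methylates transcribed regions, and some of this methylation survives in the embryo on the maternal copy as a germline differentially methylated region (gDMR). At most imprinted genes with a maternal gDMR the methylated maternal promoter is silent and the paternal copy is transcribed. Non-canonical imprinted genes, such as Sfmbt2 and Gab1, carry instead a maternal H3K27me3 imprint from the oocyte and are expressed from the paternal copy in extra-embryonic tissue.

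The promoters of 6 imprinted genes that the results turn on are given below, from 250 bases before to 50 after the RefSeq transcription start (GRCm38.p6), with the CpG dinucleotides that the deleted enzymes can methylate in capitals. Kcnq1ot1, Snrpn and Peg3 have maternal gDMRs and are paternally expressed, Grb10 has a maternal gDMR and is expressed from the maternal copy in most tissues, Meg3 belongs to the Dlk1-Meg3 cluster with its paternal gDMR, and Sfmbt2 is non-canonical.
Kcnq1ot1 (chr7:143296498-143296797, minus strand): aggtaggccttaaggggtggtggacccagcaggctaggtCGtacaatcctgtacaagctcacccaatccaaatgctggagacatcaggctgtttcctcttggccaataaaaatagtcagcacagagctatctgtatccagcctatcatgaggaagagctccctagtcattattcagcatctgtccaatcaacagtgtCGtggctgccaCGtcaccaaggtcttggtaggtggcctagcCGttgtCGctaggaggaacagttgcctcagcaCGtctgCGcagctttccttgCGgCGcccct
Snrpn (chr7:60005150-60005449, minus strand): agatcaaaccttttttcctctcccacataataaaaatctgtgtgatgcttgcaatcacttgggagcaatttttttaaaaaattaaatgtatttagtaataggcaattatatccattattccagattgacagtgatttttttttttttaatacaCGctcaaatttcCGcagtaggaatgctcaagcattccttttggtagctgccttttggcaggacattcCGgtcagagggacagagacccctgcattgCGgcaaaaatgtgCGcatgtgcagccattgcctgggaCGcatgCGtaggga
Peg3 (chr7:6730370-6730669, minus strand): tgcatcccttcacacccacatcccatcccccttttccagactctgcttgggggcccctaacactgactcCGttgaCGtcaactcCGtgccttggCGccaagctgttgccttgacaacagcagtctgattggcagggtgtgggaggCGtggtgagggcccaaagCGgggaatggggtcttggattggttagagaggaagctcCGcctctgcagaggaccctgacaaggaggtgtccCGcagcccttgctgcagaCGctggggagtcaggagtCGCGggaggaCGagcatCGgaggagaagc
Grb10 (chr11:12037371-12037670, minus strand): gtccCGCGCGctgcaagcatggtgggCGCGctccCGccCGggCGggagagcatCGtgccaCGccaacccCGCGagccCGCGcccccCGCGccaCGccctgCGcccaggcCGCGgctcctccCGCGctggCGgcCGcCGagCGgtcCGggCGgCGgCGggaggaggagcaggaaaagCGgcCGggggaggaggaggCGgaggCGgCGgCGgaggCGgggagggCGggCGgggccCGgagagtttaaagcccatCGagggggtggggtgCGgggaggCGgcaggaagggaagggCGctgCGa
Meg3 (chr12:109540746-109541045, plus strand): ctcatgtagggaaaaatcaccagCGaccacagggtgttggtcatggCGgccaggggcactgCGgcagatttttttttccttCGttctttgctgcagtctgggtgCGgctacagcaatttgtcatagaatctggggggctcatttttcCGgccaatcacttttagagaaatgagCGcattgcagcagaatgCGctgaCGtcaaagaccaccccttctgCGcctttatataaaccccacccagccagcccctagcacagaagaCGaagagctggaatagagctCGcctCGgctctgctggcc
Sfmbt2 (chr2:10370201-10370500, plus strand): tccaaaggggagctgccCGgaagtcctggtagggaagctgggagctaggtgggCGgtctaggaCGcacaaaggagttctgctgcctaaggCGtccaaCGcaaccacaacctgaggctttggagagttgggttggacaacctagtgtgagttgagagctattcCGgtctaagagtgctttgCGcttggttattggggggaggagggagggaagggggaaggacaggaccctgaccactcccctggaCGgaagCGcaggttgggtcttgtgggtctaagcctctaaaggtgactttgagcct

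The Kcnq1ot1 promoter held 9 CpGs, Snrpn 7, Peg3 13, Grb10 45, Meg3 13 and Sfmbt2 9, against a median of 7 over 32544 promoter windows of the same length. The hexamer TGCCGC, which the imprint-protecting factor ZFP57 binds when methylated, or its reverse complement GCGGCA was found once each at Snrpn, Grb10 and Meg3 and in none of the other windows printed. It occurred in 11.7% of all promoter windows. H3K4me3, the mark of active promoters, over the peak at the Kcnq1ot1 promoter counted 955 paternal and 28 maternal reads in the B6/CAST ExE libraries together and 559 and 542 in matDKO/CAST. The Snrpn promoter peak went from 675 paternal and 13 maternal reads to 355 and 353. At the Peg3 promoter 940 and 56 reads became 534 and 495. The Grb10 promoter shown is the maternally marked one, and its H3K4me3 went from 8 paternal and 74 maternal reads to 3 and 8. At Meg3 the reads were 61 paternal and 1005 maternal in B6/CAST, against 35 and 554 in matDKO/CAST. At Sfmbt2 they were 1255 and 246 in B6/CAST, against 795 and 119 in matDKO/CAST. These promoter reads thus had equal parental shares in matDKO/CAST at the 3 paternally expressed genes with maternal gDMRs, and kept an unequal share at Meg3 and Sfmbt2.

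Allele-assigned reads over autosomal peaks ranged from 602816 to 2109182 per ExE library and from 288720 to 1712555 per epiblast library, and matDKO/CAST replicate 2 was the shallowest in each tissue. The maternal share of assigned reads was 51.38% and 51.01% in the B6/CAST ExE libraries and 54.04% (replicate 2) and 51.81% (replicate 3) in matDKO/CAST. In epiblast it was 51.07% and 51.12% against 53.73% and 51.76%. The matDKO/CAST libraries were thus higher by 1.73 points in ExE and 1.65 points in epiblast, and the exact permutation test gave a two-sided p of 0.333 in each, the smallest that 2 against 2 libraries allow. Each allele column was scaled separately, so this overall shift does not enter the differences per peak. The maternal reads of matDKO/CAST were assigned with an added step that recovers 129 variants, and variants shared by 129 and CAST were left out there, so deletion, strain background and assignment cannot be told apart by the groups alone. Over gene spans, all ExE libraries lay above all epiblast libraries in H3K36me3 for 5 of 9 ExE markers, and all epiblast libraries above all ExE libraries for 4 of 7 epiblast markers. Visceral endoderm markers, which label the layer around both tissues, were also higher in every ExE than every epiblast library for 6 of 8 genes, with summed levels of 13.9 to 14.6 RPKM, the depth-scaled reads per kilobase, in B6/CAST ExE, 9.72 to 12.7 in CAST/B6 ExE, 10.0 to 10.7 in matDKO/CAST ExE and 2.95 to 5.49 in all epiblast libraries, and none of them was at 0 in any ExE library. Their part in the results was not tested. The 7 maternal decidua markers summed to between 1.44 and 1.73 RPKM in B6/CAST ExE, 1.86 and 2.48 in matDKO/CAST ExE, 2.71 and 2.77 in CAST/B6 ExE and between 2.11 and 2.62 in the epiblast libraries. In ExE the decidua sum was thus higher in both matDKO/CAST libraries than in both B6/CAST libraries, and highest in CAST/B6. The maternal share of CAST/B6 ExE was 48.84% and 48.9%, but its maternal allele is CAST, so this share cannot be set beside the others. The part of decidua in the results was not tested.

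In ExE, 29 of 7980 peaks (0.363%) differed between matDKO/CAST and B6/CAST in their parental H3K36me3, with edgeR's quasi-likelihood test at an adjusted p below 0.05. Of these, 26 (0.326%) had a lower paternal to maternal ratio in matDKO/CAST and 3 (0.0376%) a higher one. In epiblast, 18 of 11076 peaks (0.163%) differed, 16 lower (0.144%) and 2 higher (0.0181%). With the library as a replicate block, since both alleles of a library come from the same pool, 53 peaks passed in ExE and 22 in epiblast. Together the called peaks fell into 35 loci, 18 of them called in ExE alone, 6 in epiblast alone and 11 in both. Of the ExE calls 37.9% overlapped an epiblast call, and of the epiblast calls 66.7% overlapped an ExE call. The count was sensitive to single libraries: without B6/CAST replicate 1, B6/CAST replicate 2 or matDKO/CAST replicate 3 it was 12, 10 and 15 in ExE and 11, 10 and 3 in epiblast. The calls at Kcnq1ot1, Snrpn, Peg10, Dars, the agouti locus and Tmem267 in ExE and at Snrpn, Dars and the agouti locus in epiblast passed under every alternative that tested them. DESeq2 called 11 of the ExE peaks and only the last 3 in epiblast, so every other epiblast call given below was lost with it.

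The called peaks were of 2 kinds, told apart here by their values on each side of the same contrast, as a description. At 7 peaks in ExE and 3 in epiblast, a parental bias in B6/CAST was smaller in matDKO/CAST. At 20 peaks in ExE and 15 in epiblast, no bias passed the test in B6/CAST and one did in matDKO/CAST. The remaining 2 ExE peaks, at Tpbg (-2.83 ± 0.67) and Tmem267, fell in neither. The Tpbg call was lost under 6 alternatives, and the epiblast peak that overlapped it, at -0.62 ± 0.70, did not pass. The scatter plot of both crosses shows most of the first kind along the horizontal axis, except the Meg3 cluster near the line of equal bias and Fkbp6 part of the way toward it, and the second kind along the vertical axis.

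**Figure D1:**
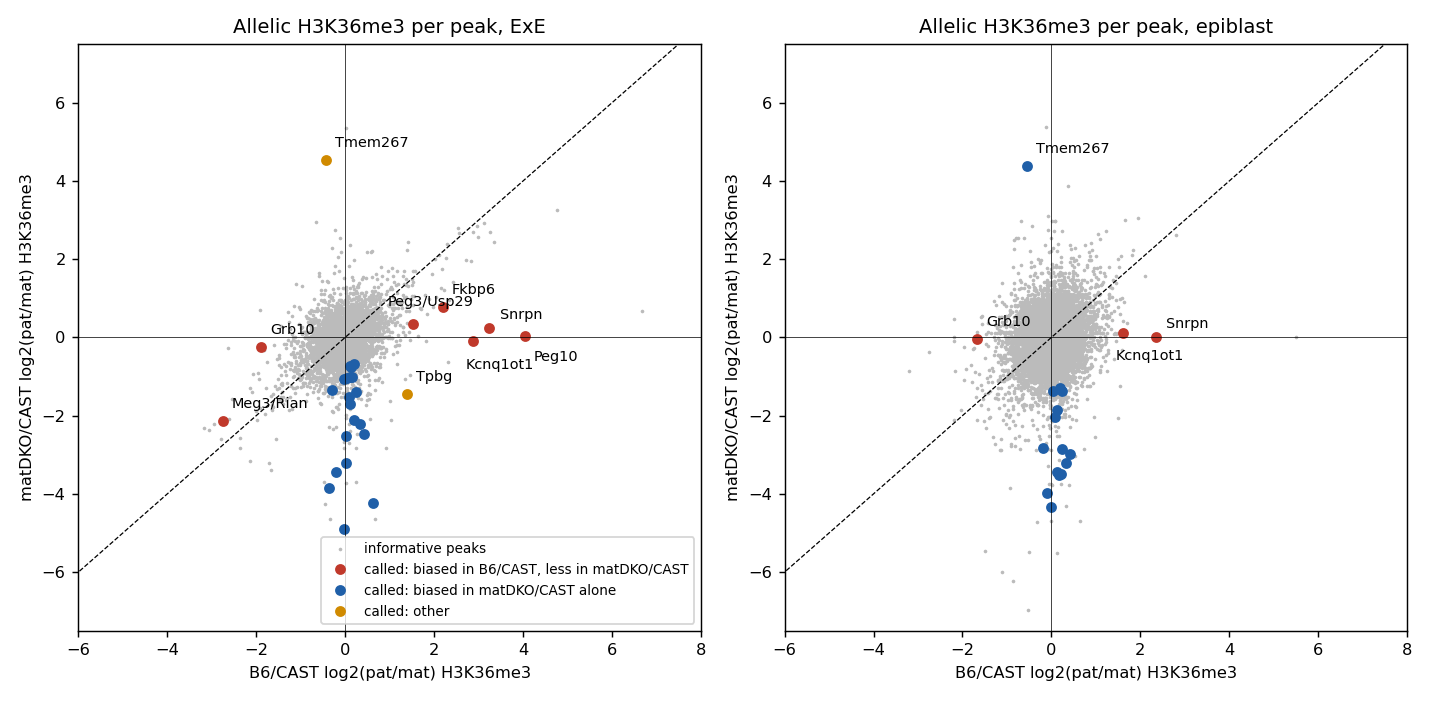
Each point is an informative H3K36me3 peak, with log2(pat/mat) in B6/CAST on the horizontal and in matDKO/CAST on the vertical axis, for ExE (left) and epiblast (right), and coloured points passed the test of the difference. The dashed line marks equal bias, Kcnq1ot1, Snrpn and Peg10 lie far to the right at a matDKO/CAST value near 0, and most other called peaks lie straight below the origin.

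The first kind held 6 peaks over genes of the imprinted lists and the Fkbp6 peak in ExE, and 3 imprinted peaks in epiblast. At Kcnq1ot1, Snrpn, Peg10 and Grb10, all with maternal gDMRs, the parental bias was close to 0 in matDKO/CAST. The peak over Kcnq1ot1, a long non-coding RNA transcribed antisense within Kcnq1, had 255 and 167 paternal against 27 and 33 maternal reads in the 2 B6/CAST ExE libraries. In matDKO/CAST it had 61 and 112 paternal against 76 and 129 maternal reads, so that the paternal excess of the wild type was absent from each library. Its log2(pat/mat) was 2.87 in B6/CAST, against -0.10 in matDKO/CAST, a difference of -2.98 ± 0.26 (SE, adjusted p = 1.27e-10). In epiblast the same locus had 56 and 159 paternal against 14 and 60 maternal reads in B6/CAST, and 25 and 70 against 30 and 65 in matDKO/CAST. The epiblast difference was -1.49 ± 0.32 (adjusted p = 0.00637). The epiblast call was lost with DESeq2 and also without either B6/CAST library or without matDKO/CAST replicate 3, with differences from -1.94 to -1.36.

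Snrpn, which encodes a small nuclear ribonucleoprotein subunit and shares its promoter region with Snurf, counted 116 and 100 paternal against 13 and 11 maternal reads in B6/CAST ExE. In matDKO/CAST ExE it counted 31 and 49 paternal against 32 and 43 maternal reads. The difference was -2.996 ± 0.37 (adjusted p = 1.02e-06). In epiblast, 70 and 209 paternal against 14 and 43 maternal reads became 25 and 53 against 25 and 60, a difference of -2.33 ± 0.33 (adjusted p = 3.51e-07). In both tissues every matDKO/CAST library lay near parity and every B6/CAST library far on the paternal side.

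Peg10, a retrotransposon-derived gene needed for placental development, had the largest difference of the 7 ExE peaks of the first kind. It had 86 and 60 paternal against 3 and 6 maternal reads in B6/CAST ExE, and 20 and 37 against 16 and 46 in matDKO/CAST. The difference was -4.01 ± 0.50 (adjusted p = 1.02e-06). The reciprocal CAST/B6 libraries had 61 and 38 paternal against 28 and 15 maternal reads, a smaller paternal excess than in B6/CAST. No informative H3K36me3 peak lay over Peg10 in epiblast. A peak shared by Peg3, a zinc finger gene, and Usp29 counted 279 and 235 paternal against 123 and 67 maternal reads in B6/CAST ExE and 85 and 145 against 74 and 126 in matDKO/CAST. That was a difference of -1.17 ± 0.22 (adjusted p = 0.0018), and the epiblast value of -0.82 ± 0.28 did not pass (adjusted p = 0.594). The ExE call was lost under 2 alternatives, 1 of them the fit without B6/CAST replicate 2, at -0.91.

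Fkbp6, which encodes an FK506-binding family protein expressed mainly in germ cells, was outside the gene lists. Its ExE peak had 138 and 86 paternal against 27 and 24 maternal reads in B6/CAST, and 44 and 74 against 30 and 46 in matDKO/CAST. The difference was -1.42 ± 0.33 (adjusted p = 0.0291), and a paternal excess remained in both matDKO/CAST libraries. In the reciprocal cross the reads were 63 and 56 paternal against 54 and 31 maternal, closer to parity than in B6/CAST. This call was lost without either B6/CAST library or matDKO/CAST replicate 3, with differences from -1.65 to -1.11.

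Grb10, a growth-restricting adaptor protein, moved the other way, from a maternal excess to near parity. It had 117 and 76 paternal against 445 and 313 maternal reads in B6/CAST ExE and 36 and 78 against 62 and 85 in matDKO/CAST, a difference of 1.66 ± 0.24 (adjusted p = 2.04e-05). In epiblast, 32 and 130 paternal against 155 and 375 maternal reads became 24 and 55 against 33 and 55, a difference of 1.62 ± 0.30 (adjusted p = 0.000444). The cluster of Meg3, Rian, Mirg and Rtl1, which is under 1 peak and has a paternal gDMR, stayed strongly maternal. It counted 286 and 216 paternal against 1990 and 1563 maternal reads in B6/CAST ExE and 106 and 156 against 442 and 852 in matDKO/CAST. The log2(pat/mat) was -2.75 in B6/CAST, against -2.14 in matDKO/CAST, and this small difference of 0.61 ± 0.15 just passed (adjusted p = 0.0489). In epiblast it was -2.19 and -2.12, a difference of 0.07 ± 0.19. The Meg3 cluster call in ExE was lost without either B6/CAST library or matDKO/CAST replicate 2 (0.40 to 0.68), and the Grb10 calls without matDKO/CAST replicate 3 (1.34 in ExE and 1.42 in epiblast), the epiblast one with DESeq2 as well.

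**Figure D2:**
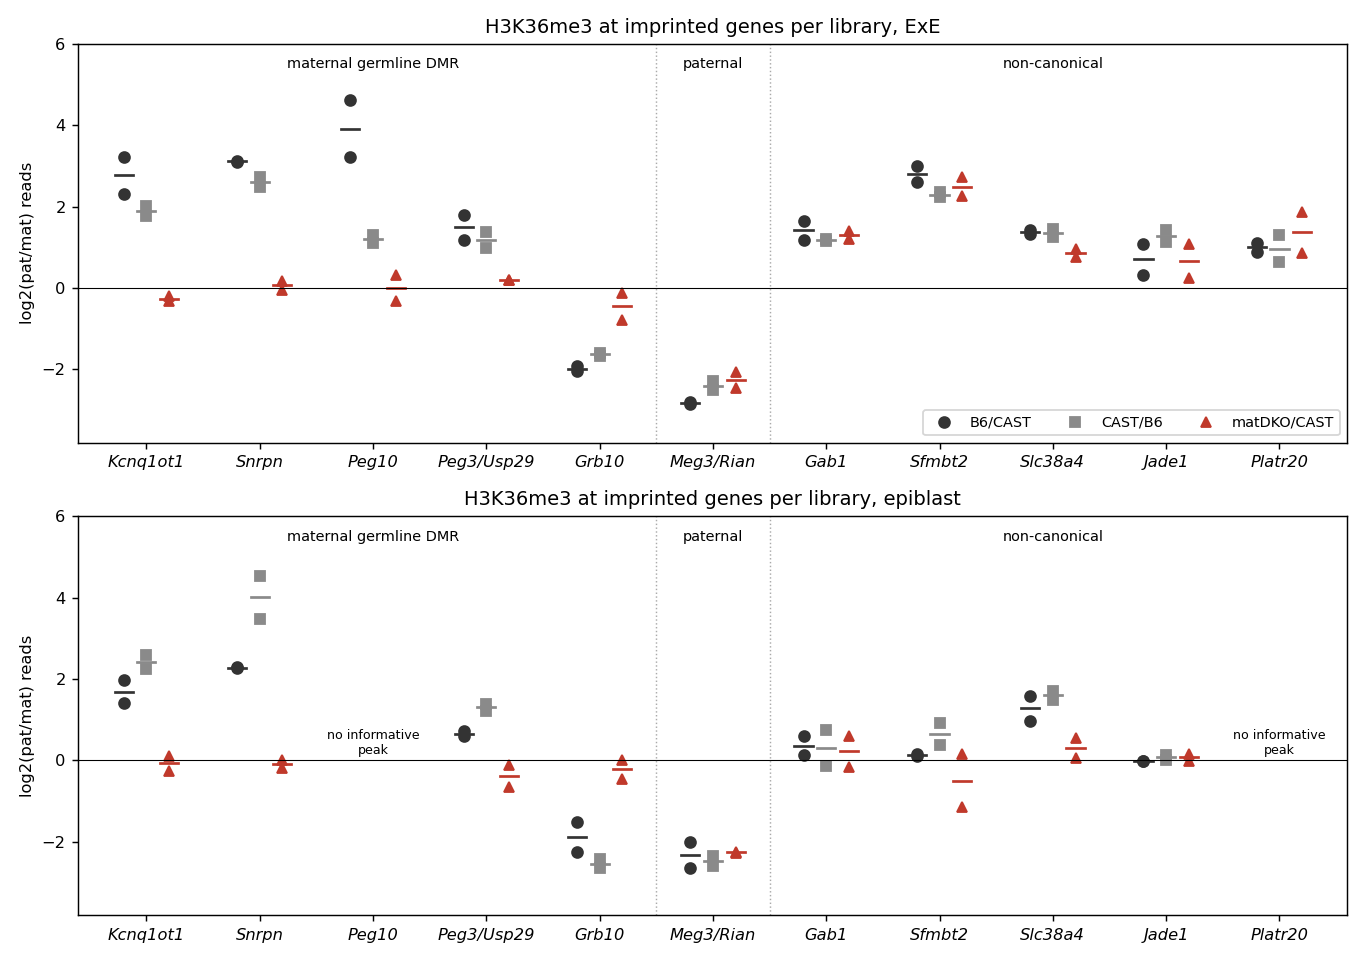
Points give log2(pat/mat) from the reads of each library (0.5 added to each count) at imprinted genes in ExE (top) and epiblast (bottom), with short bars at the mean of the 2 libraries of a cross. At Kcnq1ot1, Snrpn, Peg10, Peg3/Usp29 and Grb10 the matDKO/CAST triangles sit nearer to 0 than the wild-type symbols in ExE, while at Meg3/Rian, Gab1 and Sfmbt2 they sit close to the wild-type symbols.

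At the first kind of peak the maternal reads moved most, and they were higher in matDKO/CAST at 5 of 7 ExE peaks and lower at Grb10 and the Meg3 cluster. In counts scaled to a common depth for each allele (CPM), Kcnq1ot1 in ExE had a mean of 238.6 paternal and 33.8 maternal CPM in B6/CAST, against 230.2 and 245.9 in matDKO/CAST. At Snrpn 124.5 paternal and 13.2 maternal became 108.8 and 92.5, and at Peg10 82.9 and 5.24 became 75.8 and 70.05. At these 3 genes the maternal copy thus reached about the level of the paternal copy. Grb10 had 109.1 paternal and 410.5 maternal CPM in B6/CAST, against 148.2 and 180.9 in matDKO/CAST, so its maternal copy fell toward the paternal level. Over the 7 ExE peaks the median log2 change was 1.68 for maternal and 0.06 for paternal reads, against 0.07 and 0.08 over all informative peaks. The level over both alleles at Grb10 fell with it, from 1.15 and 1.04 RPKM to 0.499 and 0.469 in ExE (-0.70 on the log2 scale, limma adjusted p = 0.0488, a call lost without B6/CAST replicate 1, B6/CAST replicate 2 or matDKO/CAST replicate 2) and from 1.16 and 0.966 to 0.575 and 0.461 in epiblast (-0.62, adjusted p = 0.24). Input over the Grb10 peak was 0.568 to 0.578 RPKM in matDKO/CAST ExE and 0.574 to 0.613 in epiblast, so the H3K36me3 level there was at or below that of input in matDKO/CAST, and how far its near parity is that of background reads was not tested.

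**Figure D3:**
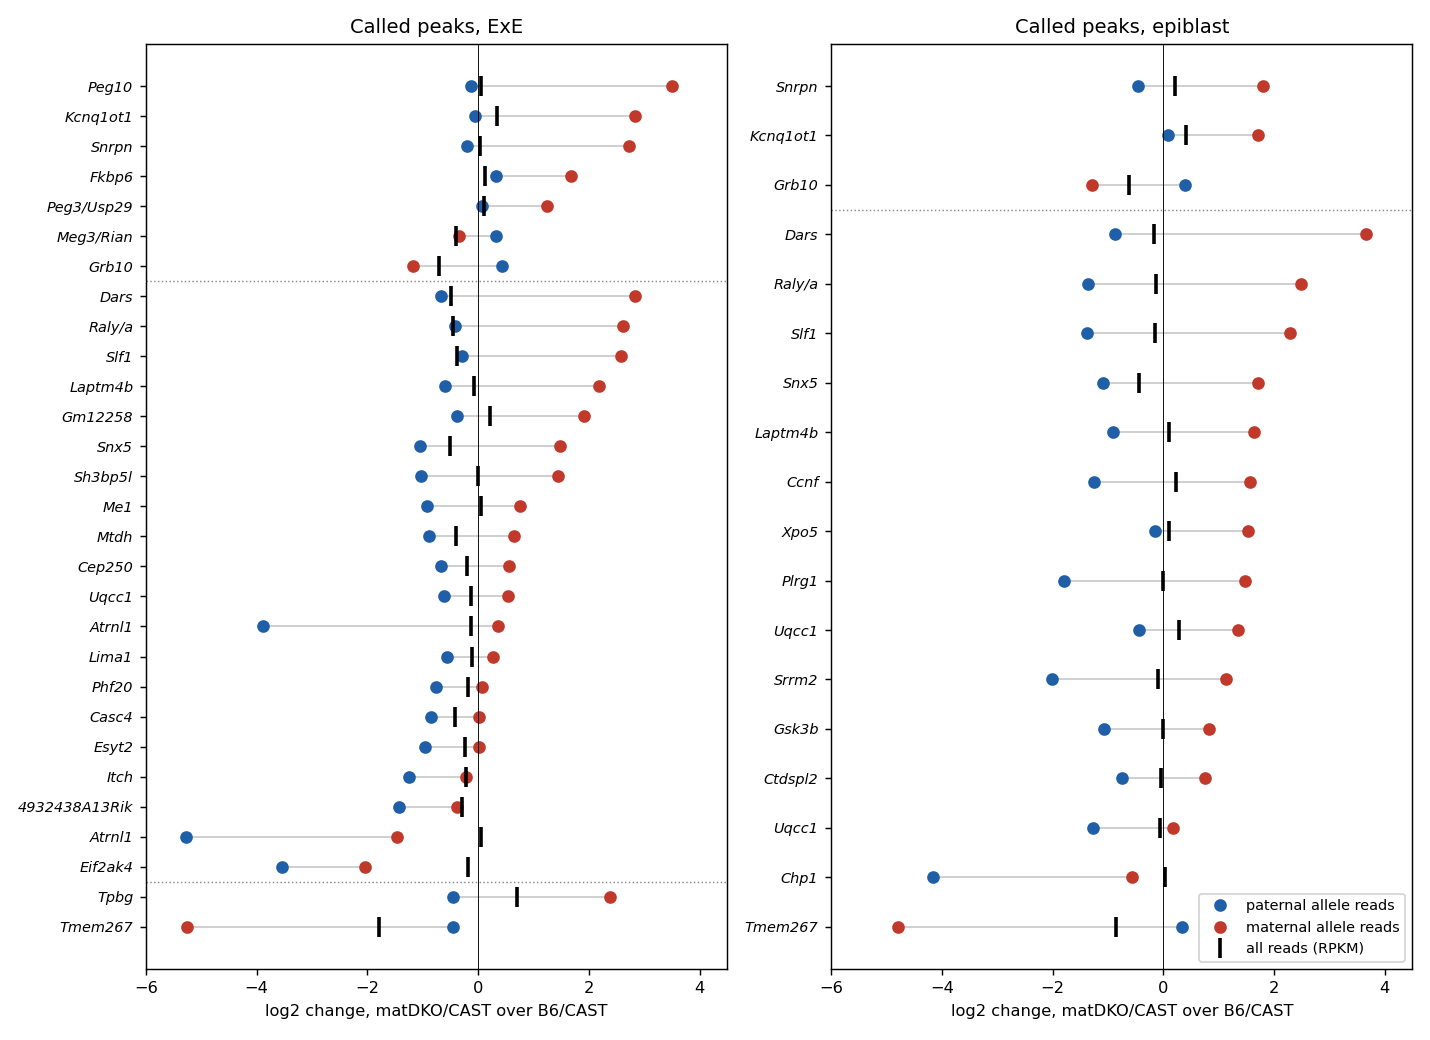
For each called peak, dots give the log2 change from B6/CAST to matDKO/CAST of paternal (blue) and maternal (red) CPM and the black bar that of all reads, with dotted lines between the kinds of peak. At Peg10, Kcnq1ot1 and Snrpn in ExE the red dots lie between 2.72 and 3.51 and the blue dots between -0.19 and -0.05, whereas at Dars the red dot lies at 2.83 and the black bar at -0.49.

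The gene lists gave the wider picture. Of 25 paternally expressed genes near maternal gDMRs, 19 had an informative ExE peak (17 distinct peaks), of which 10 were biased in B6/CAST (2.97% of all informative ExE peaks were), 7 paternally and 3 maternally, while 1 was biased in matDKO/CAST (1.27% of all). The maternal ones were Mcts2, Peg13 and Ddc, through peaks named for H13, Trappc9 and Grb10. In the ratio 6 genes at 4 distinct peaks fell and 1 rose (0.326% and 0.0376% of all ExE peaks did), and the latter was Ddc. In epiblast 17 had a peak, 6 were biased in B6/CAST, 5 paternally and 1 (Nespas, through the Gnas peak) maternally (0.479% of all epiblast peaks were) while 0 were in matDKO/CAST (0.533% of all), and 3 genes at 2 distinct peaks fell (0.144% of all peaks did). The median absolute log2(pat/mat) of this list was 0.96 (B6/CAST) and 0.23 (matDKO/CAST) in ExE, against 0.16 and 0.22 over all informative peaks. In epiblast it was 0.63 and 0.17, against 0.21 and 0.29 over all. Of 29 maternally expressed genes near maternal gDMRs, 15 had an ExE peak and 13 an epiblast peak, 6 and 3 of these were biased in B6/CAST, and in each tissue Grb10 rose and the Kcnq1 peak, the same as the Kcnq1ot1 peak, fell. Several peaks serve 2 list members, some members were tested through a peak named for a neighbour, and genes with no informative peak were not tested.

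Other members of these lists had no difference that passed. Sgce, beside Peg10, had a log2(pat/mat) of 0.96 in B6/CAST, against 0.35 in matDKO/CAST in ExE, a difference of -0.61 ± 0.29. The Gnas peak in epiblast was at -0.58 in B6/CAST, against 0.30 in matDKO/CAST, a difference of 0.88 ± 0.27 (adjusted p = 0.402). The H13 peak, which contains the paternally expressed retrogene Mcts2, was maternal in ExE on both sides, at -0.56 and -0.92. Zdbf2 in ExE, whose wild-type bias did not pass (adjusted p = 0.0555), counted 13 and 12 paternal against 0 and 5 maternal reads in B6/CAST and 0 and 7 against 5 and 7 in matDKO/CAST. Igf2, near the paternally methylated H19 region, had a log2(pat/mat) of 1.55 in B6/CAST ExE, against 1.07 in matDKO/CAST, where the bias did not pass (adjusted p = 0.337), a difference of -0.48 ± 0.57.

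At the non-canonical genes 0 of 8 ExE peaks and 0 of 7 epiblast peaks passed the test of the difference, where 0.363% and 0.163% of all peaks did, so a count of 0 is near the background. In ExE 5 of 8 were biased in B6/CAST, as were 5 in matDKO/CAST (2.97% and 1.27% of all), all paternal, and the median log2(pat/mat) was 0.94 and 0.95. Sfmbt2, a Polycomb-associated gene needed in trophoblast, had 1013 and 765 paternal against 126 and 126 maternal reads in B6/CAST ExE and 266 and 512 against 55 and 77 in matDKO/CAST, a difference of -0.20 ± 0.19. Gab1, a signalling adaptor for growth factor receptors, had 606 and 408 paternal against 192 and 178 maternal reads and then 169 and 320 against 64 and 139, a difference of -0.10 ± 0.18. All 4 libraries of each gene lay on the paternal side. Jade1, a histone acetylation scaffold, gave 0.14 ± 0.24 and Platr20, a non-coding RNA, 0.30 ± 0.47. The widest non-canonical difference in ExE was at Slc38a4, an amino acid transporter, with 215 and 150 paternal against 79 and 59 maternal reads in B6/CAST and 67 and 142 against 34 and 83 in matDKO/CAST, a difference of -0.49 ± 0.25.

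Smoc1, Zfp64 and Sall1 were not biased past the test in ExE on either side, and their differences were -0.08 ± 0.32, 0.09 ± 0.20 and 0.19 ± 0.64. In epiblast only Slc38a4 of this list was biased in B6/CAST, with 43 and 93 paternal against 14 and 47 maternal reads. In matDKO/CAST it had 22 and 49 against 15 and 47, a difference of -0.91 ± 0.36 (adjusted p = 0.928). The other epiblast differences were 0.20 ± 0.32 at Gab1, -0.31 ± 0.77 at Sfmbt2, 1.02 ± 0.73 at Smoc1, 0.12 ± 0.21 at Jade1, 0.14 ± 0.29 at Zfp64 and -0.04 ± 0.60 at Sall1.

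Gene bodies of enzymes that write or remove H3K36 and DNA methylation, listed with related factors such as Dnmt3l, Uhrf1 and Trim28, showed no call. The counts were 0 of 17 in ExE and 0 of 16 in epiblast, and 14 housekeeping gene bodies in each tissue showed none either. With 0.363% and 0.163% of all peaks called these counts are near the background. The deleted genes themselves could not be checked this way. The Dnmt3b peak lies over the whole gene, the Dnmt3a peak covers only part of its gene, and which exons are deleted was not located here. Over Dnmt3b (chr2:153649450-153687730) the ExE libraries had 239 and 197 paternal against 286 and 205 maternal reads in B6/CAST and 68 and 120 against 52 and 136 in matDKO/CAST. Over Dnmt3a the counts were 28 and 25 against 31 and 47, and 10 and 20 against 10 and 30. The differences were 0.25 ± 0.22 and 0.23 ± 0.50 in ExE and -0.16 ± 0.24 and 0.78 ± 0.47 in epiblast.

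The second kind of called peak was more numerous, and none was the peak of a gene on the imprinted lists. All 20 ExE peaks of this kind and 14 of 15 epiblast peaks had a maternal excess in matDKO/CAST. The peak over Dars, an aspartyl-tRNA synthetase, and the replication factor Mcm6 had 32 and 38 paternal against 50 and 45 maternal reads in B6/CAST ExE and 7 and 12 against 146 and 152 in matDKO/CAST. The difference was -3.49 ± 0.44 (adjusted p = 1.02e-06), and in epiblast it was -4.34 ± 0.55 (adjusted p = 1.77e-08). The peak over the agouti locus (gene a), which also covers Raly, an RNA-binding protein, and the translation factor Eif2s2, had 52 and 38 paternal against 65 and 45 maternal reads in B6/CAST ExE. In matDKO/CAST it had 15 and 10 against 119 and 185, a difference of -3.24 ± 0.37 (adjusted p = 1.33e-07). In epiblast that peak differed by -3.87 ± 0.50 (adjusted p = 1.77e-08). Slf1, a DNA repair factor, differed by -3.23 ± 0.43 in ExE and -3.70 ± 0.53 in epiblast, with 16 and 6 paternal against 74 and 156 maternal reads in matDKO/CAST ExE.

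Laptm4b, a lysosomal membrane protein, and Snx5, a sorting nexin, also passed in both tissues, at -2.89 ± 0.60 and -2.54 ± 0.46 in ExE and -3.52 ± 0.58 and -2.64 ± 0.58 in epiblast. The Laptm4b calls were lost under 5 alternatives in ExE and 3 in epiblast, and the Snx5 calls under 2 and 5. Uqcc1, a complex III assembly factor, passed at -1.12 ± 0.20 in ExE and at 2 adjacent peaks in epiblast. The wide peak over Casc4 and its neighbours in ExE covered the epiblast call at Ctdspl2. In ExE, 2 peaks within Atrnl1 differed by -4.86 ± 0.96 and -4.85 ± 1.04 and Sh3bp5l by -2.56 ± 0.51. In epiblast, Srrm2, a splicing protein, differed by -3.68 ± 0.82, Plrg1, another splicing factor, by -3.58 ± 0.70, Chp1 by -3.40 ± 0.73 and the cyclin gene Ccnf by -3.07 ± 0.56. The epiblast calls at Gsk3b, Xpo5, Ctdspl2 and the 2 Uqcc1 peaks lay between -2.11 and -1.39, and they were lost under 9 alternatives at Gsk3b, 4 at Xpo5, 3 at Ctdspl2 and 8 and 6 at Uqcc1, each time including the fit without matDKO/CAST replicate 3. Several of these rested on matDKO/CAST replicate 3: without it the epiblast differences were -0.11 at Laptm4b, -1.01 at Ccnf and 0.04 at Srrm2, where replicate 2 held 5 paternal and 5 maternal, 2 and 4, and 1 and 1 reads, and the first Atrnl1 difference in ExE was -2.35. The remaining ExE calls of this kind, at Gm12258, Me1, Mtdh, Eif2ak4, Cep250, Itch, 4932438A13Rik, Esyt2, Phf20 and Lima1, had log2 differences between -2.31 and -0.83. Each of these was lost under some alternatives, from 3 at Itch and Lima1 to 6 at Me1, Eif2ak4 and Phf20. Every ExE call of this kind had the same sign at the epiblast peak that overlapped it most, and 6 of 20 passed there.

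Paternal CPM were lower in matDKO/CAST at 20 of 20 ExE peaks of the second kind and maternal ones higher at 16 of 20, while the level over all reads passed its test at 2 of 20, Dars and the agouti locus, both lower. At Dars in ExE the mean rose from 52.4 to 379.3 maternal CPM and fell from 41.2 to 25.5 paternal CPM, while the RPKM over all reads was 3.35 and 3.26 in B6/CAST, 2.26 and 2.44 in wild-type CAST/B6 and 2.18 and 2.23 in matDKO/CAST. At Eif2ak4, a stress-responsive translation kinase, paternal CPM went from 308.8 to 25.5 and maternal ones from 295.9 to 70.9, with 1.52 and 1.42 RPKM against 1.25 and 1.20. At Atrnl1 paternal reads went from 129 and 68 to 1 and 0 and the RPKM was 1.48 and 1.16 against 1.26 and 1.48. Across peaks of the second kind, assigned reads changed by at least 2-fold more or less than all reads at 35.0% of 20 in ExE and 33.3% of 15 in epiblast, against 1.9% and 4.04% of all informative peaks. At the peaks of the first kind this was so for 0 of 7 and 0 of 3. These counts describe peaks chosen by the same allele reads and were not tested.

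H3K4me3 and H3K27me3 from the same crosses were counted over the whole peaks of those marks that touched a called H3K36me3 peak. Their reads may therefore lie partly outside it. At Dars in ExE, H3K4me3 counted 129 paternal and 125 maternal reads in B6/CAST, against 1 and 276 in matDKO/CAST. At Atrnl1 the counts were 99 and 19 against 0 and 233, and at Slf1 156 and 125 against 44 and 309. Of 15 ExE peaks of the second kind with at least 20 H3K4me3 reads on each side, 15 had the same direction of difference in H3K4me3 and 10 were past 1 on the log2 scale. In epiblast this was so for 11 and 6 of 12. H3K27me3 had enough reads at 3 such ExE peaks and none passed 1 there, with 903 paternal and 950 maternal reads at the agouti locus in B6/CAST, against 376 and 540 in matDKO/CAST. In epiblast it had enough at 2, Laptm4b with a difference of 0.25 and Tmem267 with 3.64, from 32 paternal and 92 maternal reads to 33 and 8.

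At the imprinted peaks the other marks moved by locus. In the 2 H3K27me3 peaks that touched the Kcnq1ot1 peak, this Polycomb mark of silent promoters had 18451 paternal and 4759 maternal reads in B6/CAST ExE. In matDKO/CAST it had 11355 and 11516, a change in the same direction as that of H3K36me3. These peaks were counted whole, so the reads are not those of the Kcnq1ot1 body alone. The H3K27me3 peak that touched the Grb10 peak leaned in B6/CAST to the other allele from H3K36me3. It had 572 paternal and 170 maternal reads in B6/CAST ExE and 248 and 308 in matDKO/CAST. In epiblast the Grb10 counts were 658 and 58 against 326 and 413. The H3K4me3 peaks that touched the Meg3/Rian peak had 90 paternal and 1056 maternal reads in B6/CAST ExE and 48 and 575 in matDKO/CAST.

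**Figure D4:**
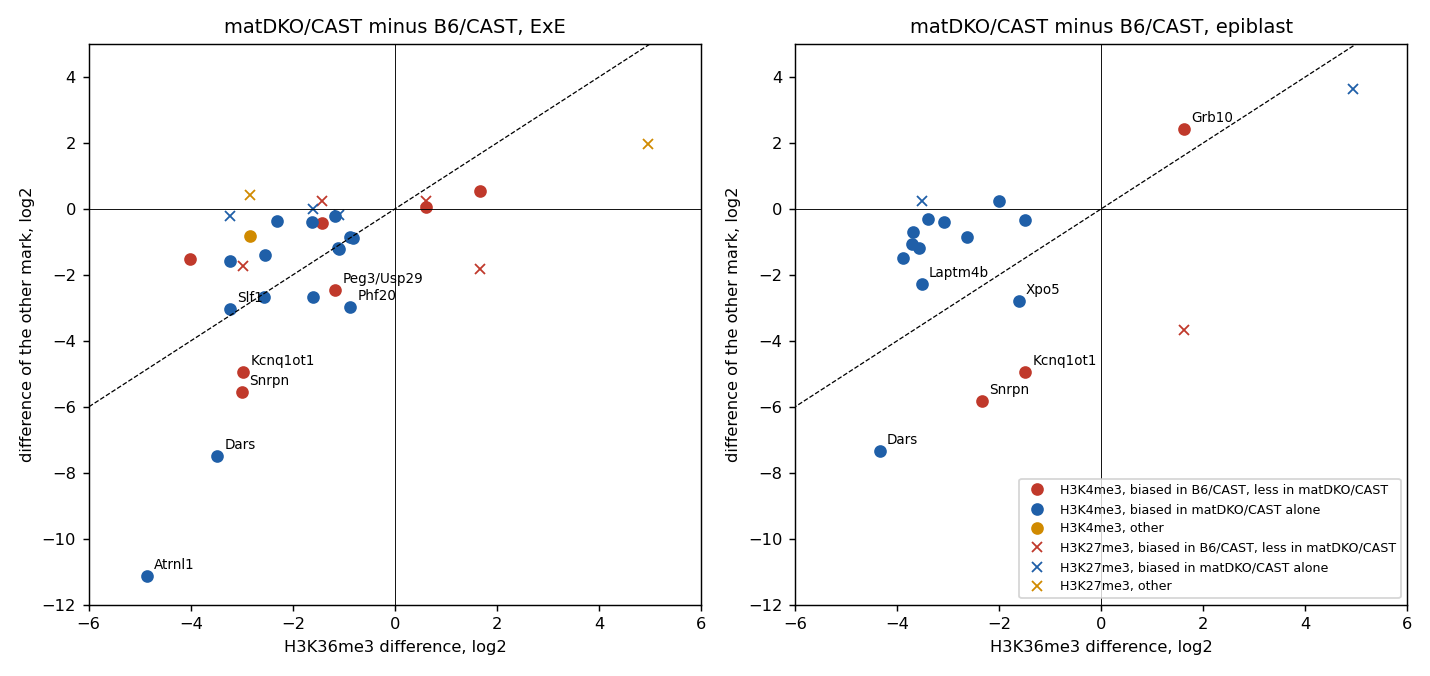
The log2 difference in log2(pat/mat), matDKO/CAST minus B6/CAST, of H3K4me3 (dots) and H3K27me3 (crosses) is plotted against that of H3K36me3 at called peaks with at least 20 reads of the other mark on each side, for ExE (left) and epiblast (right). Nearly all H3K4me3 dots left of 0 also lie below 0, down to -7.496 at Dars and -11.1 at Atrnl1 in ExE, and the Grb10 crosses lie below 0 at -1.81 (ExE) and -3.68 (epiblast).

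Tmem267, on chromosome 13, had the largest shift to the paternal side among the called peaks, ahead of Grb10 (1.66 in ExE and 1.62 in epiblast). Its ExE peak (chr13:119608500-119618500) had 313 and 247 paternal against 474 and 321 maternal reads in B6/CAST and 67 and 104 against 4 and 4 in matDKO/CAST, a difference of 4.96 ± 0.35 (adjusted p = 1.32e-13). In epiblast the difference was 4.94 ± 0.94 (adjusted p = 0.000844), from 8 and 38 paternal and 23 and 47 maternal reads to 6 and 16 and 0 and 1. All reads over it fell too, from 14.3 and 12.1 RPKM to 3.27 and 3.62 in ExE. The input DNA, taken before immunoprecipitation, was 1.66 to 1.74 RPKM there in B6/CAST, 1.91 to 1.94 in CAST/B6 and 0.795 to 0.807 in matDKO/CAST ExE. At Kcnq1ot1 in ExE, by contrast, the input was 0.533 to 0.596 RPKM in B6/CAST and 0.528 to 0.555 in matDKO/CAST.

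The second kind of peak was found on 9 chromosomes in ExE, with 8 of 20 peaks on chromosome 2, the chromosome of Dnmt3b, which held 641 of the 7980 informative ExE peaks (8.03%). Within 5 Mb of Dnmt3b 5 of 62 ExE peaks and 3 of 79 epiblast peaks passed, all lower, against the 0.363% and 0.163% of all peaks. These ExE peaks, from the agouti locus through Itch, Uqcc1 and Cep250 to Phf20, lay in 1 stretch (chr2:154790500-156321000) on the same side of Dnmt3b. The epiblast peaks, at the agouti locus and Uqcc1, lay in that stretch too. They are thus linked neighbours counted separately, and the shares do not describe independent peaks. Between 5 and 20 Mb away 1 of 98 and 1 of 140 passed, between 20 and 50 Mb 2 of 168 and 2 of 178 passed, and none of the 313 and 409 peaks beyond 50 Mb. The median difference within 5 Mb was only -0.04 in ExE and -0.14 in epiblast. On chromosome 12, 0 of 16 ExE and 0 of 20 epiblast peaks within 5 Mb of Dnmt3a passed. Leaving out chromosomes 2 and 12 left 19 ExE and 12 epiblast calls.

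**Figure D5:**
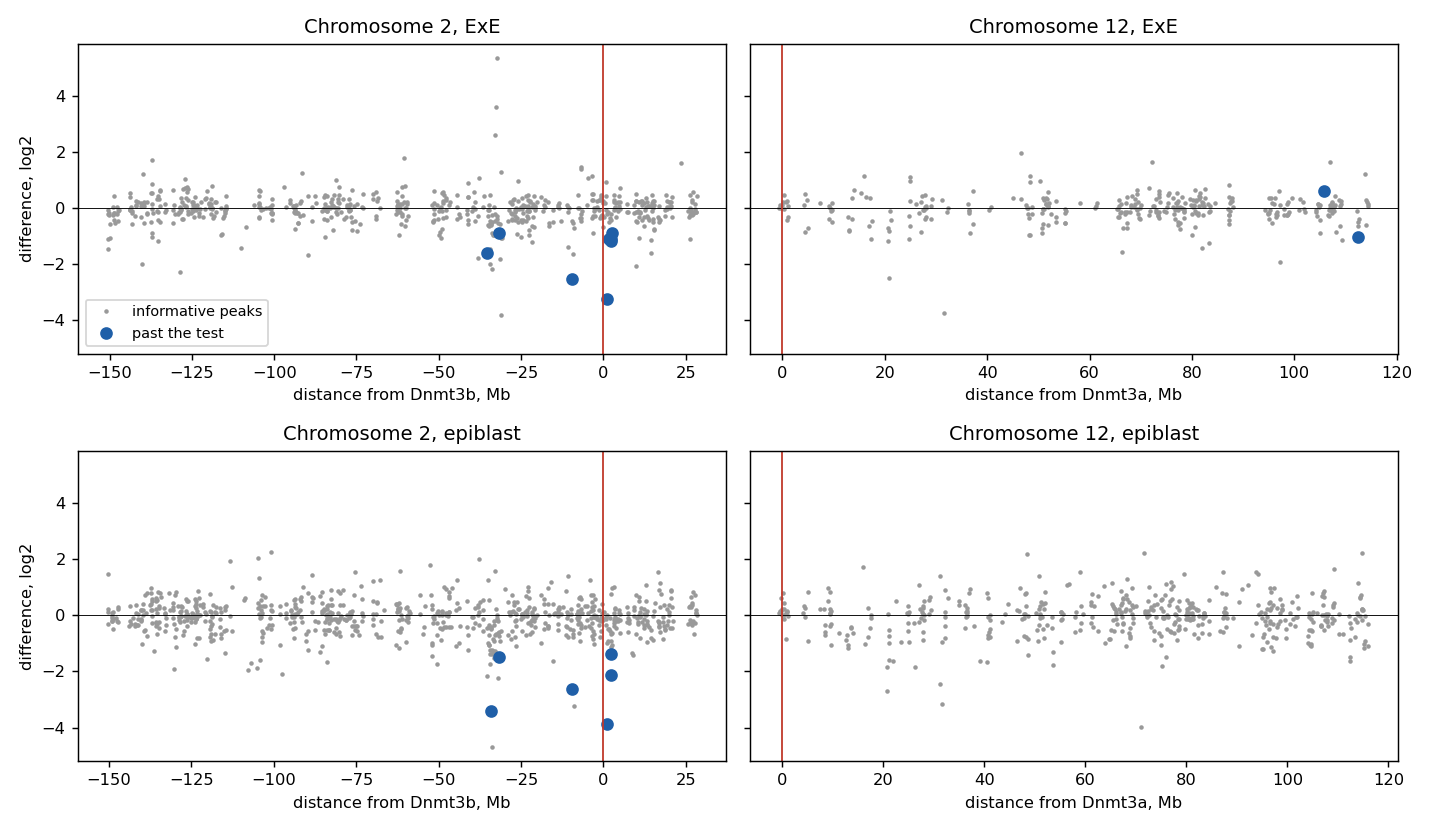
Each point is an informative H3K36me3 peak on the chromosome of Dnmt3b (left) or Dnmt3a (right), with its distance from that gene in Mb on the horizontal axis and its log2 difference in log2(pat/mat), matDKO/CAST minus B6/CAST, on the vertical axis, for ExE (top) and epiblast (bottom). Blue points passed the test, and on chromosome 2 they lie within 50 Mb of Dnmt3b, among many grey peaks near 0.

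Chromosome medians of the H3K36me3 difference lay between -0.05 and 0.05 in ExE and between -0.09 and 0.07 in epiblast. In the other marks, chromosomes 11 and 3 stood higher in epiblast, with medians of 0.25 and 0.21 for H3K4me3 and 0.33 and 0.19 for H3K27me3, against 0.01 over all peaks of either mark. The Grb10 values of these marks in epiblast come from chromosome 11, and the part of this shift in them and in the bins was not tested. Over 194 ExE bins of 10 Mb with at least 20 peaks the medians ranged from -0.54 to 0.23, and over 241 epiblast bins from -0.54 to 0.49. The lowest bin in epiblast, at 30 to 40 Mb of chromosome 15 with Mtdh and Laptm4b, was at -0.54 for 47 peaks and at -0.39 for 41 peaks in ExE. H3K4me3 medians of this bin were -0.26 in ExE and -0.39 in epiblast. The lowest ExE bin, at 10 to 20 Mb of chromosome 7, was at -0.54 for 41 peaks and at -0.24 in epiblast, with H3K27me3 medians of -0.40 and -0.34. Across bins that held 20 peaks of both marks, Pearson's r of the H3K36me3 and H3K4me3 medians was 0.532 over 194 bins in ExE and 0.224 over 232 bins in epiblast, with Spearman's rho of 0.255 and 0.157. With H3K27me3 Pearson's r was 0.141 and 0.107 and rho 0.0503 and 0.0741. Neighbouring bins share libraries and haplotypes, so these are descriptions.

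Most biases in B6/CAST had the same sign in matDKO/CAST. In ExE, 237 peaks (2.97%) were biased in B6/CAST, 123 paternal (1.54%) and 114 maternal (1.43%), and 101 (1.27%) in matDKO/CAST. These counts depended on the libraries and the test: without B6/CAST replicate 1, B6/CAST replicate 2, matDKO/CAST replicate 2 or replicate 3 they were 29, 68, 448 and 463 for B6/CAST and 55, 56, 97 and 37 for matDKO/CAST, with the replicate block 544 and 198, and with DESeq2 52 and 44. Of the 123 paternal peaks 114 kept the paternal sign in matDKO/CAST, and of the 114 maternal peaks 107 kept the maternal sign, while 28 and 22 passed the test that way there. In epiblast 53 peaks (0.479%) were biased in B6/CAST, 29 paternal (0.262%) and 24 maternal (0.217%), and 59 (0.533%) in matDKO/CAST (8 to 71 and 4 to 52 with 1 library left out, the lowest without B6/CAST replicate 2 and matDKO/CAST replicate 3), and 27 of 29 paternal and 20 of 24 maternal peaks kept their sign, while 9 and 2 passed. Peaks with strain rather than parental bias are included in these counts. The joint fit of both tissues, on 5995 peaks matched between them, found 0 peaks whose difference itself differed between ExE and epiblast by edgeR at an adjusted p below 0.05, and 215 (3.59%) at an unadjusted one. The Kcnq1ot1 peak was different between tissues by -1.48 ± 0.42 (ExE minus epiblast, edgeR unadjusted p = 0.000789), which did not pass after adjustment.

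The level of H3K36me3 over both alleles was compared separately with limma on log2(RPKM + 0.5). In ExE 106 of 12871 peaks (0.824%) were lower in matDKO/CAST than in B6/CAST and 0 higher (2751 at an unadjusted p below 0.05), with a median over all peaks of -0.11, and the adjusted p-values of these calls lay just under the threshold. Both matDKO/CAST libraries lay below both wild-type CAST/B6 libraries at 47 of the 106, and at the others the 2 crosses overlapped or CAST/B6 was lower. The calls included Grb10, Dars, the agouti locus and Tmem267 among the peaks above, which were lower than both. In epiblast 1 of 23959 peaks (0.00417%) passed. The ExE count was 1 with the CAST/B6 libraries left out of the fit, and 0, 0, 0 and 782 without B6/CAST replicate 1, B6/CAST replicate 2, matDKO/CAST replicate 2 or replicate 3. Of the 7 ExE peaks of the first kind 1 passed, and the median change over them was 0.06. At Snrpn (0.04) and Kcnq1ot1 (0.35, limma adjusted p = 0.0987) a gain of maternal reads was seen without a called change over both alleles. The Kcnq1ot1 level was nonetheless higher in both matDKO/CAST ExE libraries, at 2.1 and 2.41 RPKM. It was 1.81 and 1.53 in B6/CAST and 1.32 and 1.44 in CAST/B6.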

How the data were processed

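H3K36me3, H3K4me3, H3K27me3 and input reads had been trimmed (Trim Galore, version 0.4.4 in the submitters' processing notes) and aligned (Bowtie2 2.3.2) by the authors to a variant-masked GRCm38 genome and split by allele with SNPsplit, with the added 129 step for matDKO/CAST. Peaks were called with chromstaR on the wild-type crosses alone. The deposited tables hold allele read counts per peak, which are raw, and RPKM over all reads in 1 kb windows of the genome, computed by the authors. The RPKM of a peak or gene span given here is the mean of the windows that it touches. Counts of 20 or more in 1 wild-type allele column were required. The cross by parent interaction was fitted per tissue on the B6/CAST and matDKO/CAST allele columns with edgeR 4.0.16 (quasi-likelihood F test, TMM factors per allele column, Benjamini-Hochberg adjustment over all informative peaks, threshold 0.05). RPKM were tested on log2(RPKM + 0.5) with limma 3.58.1 over all 3 crosses, and a fold change on this scale understates the change of low peaks. The log2 ratios of other marks used 0.5 added to each count. Replicate pairs differed by more than sampling noise (chi-square per degree of freedom from 1.14 to 1.80), so none was treated as a duplicate. The edgeR and limma fits were tested on simulated data.

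Peaks were named by the gene of the interval. The text names called peaks and the members of the gene lists, and the members and lists were chosen with earlier results of these data known. Alternatives were DESeq2 1.42.0, a replicate block, other filters, thresholds and scalings, left-out libraries and chromosomes, and counts summed per gene. The joint fit of both tissues, the comparison of assigned with all reads and the other marks were added after the data were seen. Promoter sequences are from RefSeq (GRCm38.p6), where 6 of the genes shown were matched. Low counts limit single peaks, and read counts of PCR products are not independent molecules.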

Additional observations from a re-analysis of the deposited data

How the results depend on the processing

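The replicate block, which takes both alleles of a library as a pair because they come from the same pool, moved the calls of the difference from 29 to 53 in ExE and from 18 to 22 in epiblast and kept all the calls made without it. With the block the biased peaks were 544 in B6/CAST and 198 in matDKO/CAST in ExE and 103 and 91 in epiblast. DESeq2 called 11 differences in ExE and 3 in epiblast, and 52 and 44 biased peaks (B6/CAST and matDKO/CAST) in ExE and 6 and 3 in epiblast. With no filter on low counts ExE gave 44 differences and 164 biased matDKO/CAST peaks. At an adjusted p below 0.01 there were 19 ExE differences, and 139 and 50 biased peaks in ExE and 31 and 28 in epiblast. Without chromosomes 2 and 12, 19 ExE differences were left. With 20 reads required in each cross, 32 epiblast peaks were biased in B6/CAST. Leaving out 1 library gave 10 to 36 differences in ExE and 3 to 21 in epiblast, 29 to 463 biased B6/CAST peaks and 37 to 97 biased matDKO/CAST peaks in ExE, and 8 to 71 and 4 to 52 in epiblast. The level over both alleles depended most on the setting: the ExE count of 106 became 309 with a pseudocount of 1, 2 with 0.1, 990 among peaks of at least 1 RPKM, 1 with CAST/B6 left out and 0 to 782 with a library left out, and the epiblast count of 1 became 72 at 1 RPKM or more and 0 to 2045 with a library left out. The Srrm2 difference in epiblast turned to 0.042 without matDKO/CAST replicate 3 and ranged down to -4.36 with another library left out. The cause of these changes was not tested.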
